A study of Homo sapiens with 9 samples.

Results

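The genes described here move zinc across membranes or bind it inside the cell. They are SLC30A1 and SLC30A5, which carry zinc out of the cytosol, SLC39A6 and SLC39A10, which carry it in, the zinc-sensing transcription factor MTF1, and the metallothioneins MT2A, MT1X, MT1E, MT1F and MT1G. They were chosen by gene symbol, and all 10 are among the 34922 gene rows of the count table. SLC30A1 was taken up because earlier results of these same libraries had placed it among the genes higher in lung than in bone marrow, and the other members were named with it. The differences between bone marrow and lung are therefore given for the members as a description; where counts past a threshold are given there, they restate that choice and are no test of it. The question set for them was whether SLC30A1 and the metallothioneins move together, as targets of MTF1.

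The libraries come from TC71, an established human Ewing sarcoma line, and all groups share this line and an NSG mouse host, a strain without mature lymphocytes whose other cells remain. In each mouse 100 cells in diluted Matrigel were placed under the flank skin, and flow cytometry recovered tumour cells from each tissue at a tumour diameter of 1.5 cm; the gate is not stated. The groups are 4 libraries from bone marrow metastases, 4 from lung metastases and 1 from the primary tumour, with no agent or engineered allele named in the labels. The labels do not say which libraries share a mouse or whether animals were pooled, so p-values measure only the spread between these samples. Sex and age of the mice are not given in the sources used here.

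Zinc homeostasis is a feedback loop. MTF1 binds zinc with its zinc fingers, enters the nucleus and binds metal response elements in the promoters of metallothionein genes and of SLC30A1. Metallothioneins are small cysteine-rich proteins that hold zinc, copper and cadmium, and the SLC30A1 protein, also called ZnT1, is the exporter of the plasma membrane. Both lower free zinc in the cytosol, so in many cell types their RNA is read as a sign of zinc load. In mouse cells, MTF1 also represses Slc39a10.

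The promoters of SLC30A1, MT2A and MT1X are shown because MTF1 is known to act there and because these genes carry the site difference below. Each window runs from 250 bases before to 50 bases after a RefSeq transcript start on GRCh38.p14 and is written on the gene's strand. Capitals mark matches to the core of the metal response element, searched as TGCACNC and TGCGCNC on both strands. The windows are chr1:211579112-211579411 on the minus strand for SLC30A1, and chr16:56608334-56608633 and chr16:56682220-56682519 on the plus strand for MT2A and MT1X.
SLC30A1: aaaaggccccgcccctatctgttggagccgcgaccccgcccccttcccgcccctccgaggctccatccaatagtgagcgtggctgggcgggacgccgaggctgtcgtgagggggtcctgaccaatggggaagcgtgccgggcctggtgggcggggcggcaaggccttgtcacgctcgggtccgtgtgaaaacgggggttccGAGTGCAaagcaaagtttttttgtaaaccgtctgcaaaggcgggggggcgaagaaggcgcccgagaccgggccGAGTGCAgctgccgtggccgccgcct
MT2A: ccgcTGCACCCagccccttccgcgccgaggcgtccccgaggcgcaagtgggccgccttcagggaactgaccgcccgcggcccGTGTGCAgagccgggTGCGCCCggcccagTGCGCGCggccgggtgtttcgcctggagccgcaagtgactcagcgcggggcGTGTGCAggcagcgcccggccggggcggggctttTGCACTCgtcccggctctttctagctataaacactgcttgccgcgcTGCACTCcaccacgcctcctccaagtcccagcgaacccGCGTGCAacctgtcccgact
MT1X: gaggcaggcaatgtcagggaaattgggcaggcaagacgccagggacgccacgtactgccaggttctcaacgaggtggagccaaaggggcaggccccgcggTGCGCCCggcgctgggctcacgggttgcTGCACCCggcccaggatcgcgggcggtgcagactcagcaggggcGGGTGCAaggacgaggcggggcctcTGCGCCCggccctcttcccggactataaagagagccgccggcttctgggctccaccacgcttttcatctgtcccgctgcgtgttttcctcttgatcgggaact
No matches overlapped one another. The MT2A window held 8, the MT1X window 4 and the SLC30A1 window 2. Of 35116 such windows in the RefSeq table, 29.6% held at least 1 match, 8.6% at least 2, 0.601% at least 4 and 0.0199% at least 8. Counting the start as base 0, the matches of SLC30A1 lie at -49 to -43 and at 24 to 30, both on the opposite strand. RefSeq places this start 419 bases upstream of the outermost SLC30A1 start in GENCODE release 29, so the window depends on the annotation. The same holds for other members, with starts 385 bases apart for MT2A, 46 for MT1X and 368 for SLC30A5. For the SLC39A10 window with a match they were 81249 bases apart. Of the members, 7 had an entry, in 8 windows. SLC39A6 had 1 match, SLC39A10 had 1 in one of its 2 windows, and SLC30A5 and MTF1 had none of these letters in theirs. A match describes the sequence and is not evidence of binding.

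**Figure D1:**
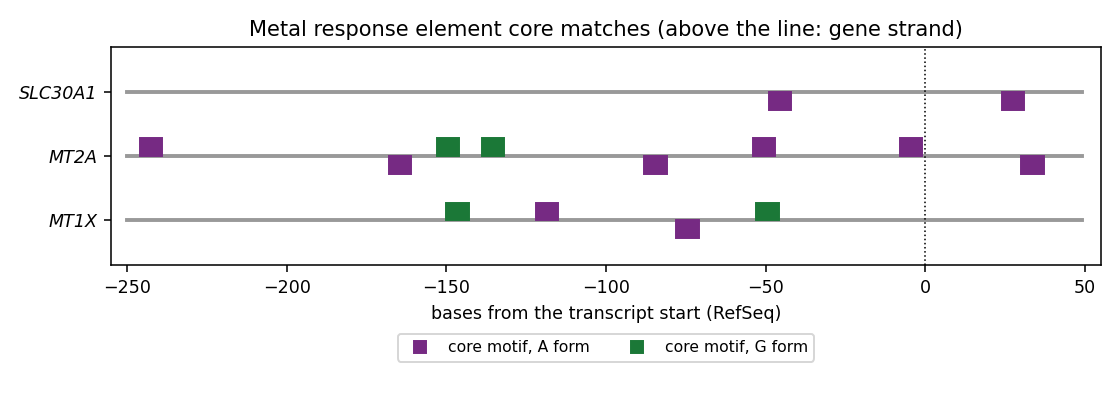
Positions of core matches in the promoter windows of SLC30A1, MT2A and MT1X, in bases from the RefSeq transcript start (dotted line). Boxes above a line are on the gene's strand and boxes below on the opposite strand, the A form is TGCACNC and the G form TGCGCNC; MT2A has 8 boxes, MT1X 4 and SLC30A1 2.

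Library totals ran from 14159500 to 17911500 estimated counts in bone marrow and from 11550000 to 13219000 in lung, and the primary library held 12354100. Lung replicate 3 stood apart, with 14.9% of tested genes at 0 and a median correlation of 0.86 with the other libraries, against 0.88 to 0.91 for the other 8. All 8 Ewing sarcoma markers listed for the check of the cell type, among them CD99, NR0B1 and STEAP1, had counts, and they summed to between 1672 and 2085 CPM in bone marrow metastases, 1659 and 2396 CPM in lung metastases and 2633 CPM in the primary library. Reads listed as mouse made up 7.35 to 7.75% of reads in bone marrow, 7 to 8.09% in lung and 7.45% in the primary library. Levels below are in CPM, counts scaled to a common library size, after TMM correction for composition, and log2 fold changes come from 1 edgeR model of all genes.

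SLC30A1, the plasma membrane exporter (chromosome 1, 211571568 to 211578742, minus strand, GRCh38, GENCODE release 29), was lower in every bone marrow library than in any lung library, and its mean was 10.7-fold higher in lung. The levels were 11.7, 7.44, 18.5 and 6.77 CPM in bone marrow replicates 1 to 4, against 173, 127, 65.1 and 112 CPM in lung replicates 1 to 4. The primary library held 37.6 CPM. Every bone marrow library lay below the primary library and every lung library above it, so the primary tumour sat between the metastatic sites. These levels rest on 104 to 267 counts in bone marrow, 787 to 2037 in lung and 490 in the primary library. The means were 11.1 ± 5.41 CPM in bone marrow metastases and 119 ± 44.3 CPM in lung metastases (SD, n = 4 each), and the fitted log2 fold change was -3.42 ± 0.47 (SE). No annotated gene overlaps SLC30A1.

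MT1X is the metallothionein with most of the family's counts here (chromosome 16, 56682424 to 56684196, plus strand). It stood at 32.03, 41.1, 19.9 and 34.7 CPM in bone marrow replicates 1 to 4, against 90.4, 86.8, 53.5 and 128 CPM in lung replicates 1 to 4. The primary library held 40.6 CPM, within the bone marrow range and below all lung libraries. The sites did not overlap, and the log2 fold change was -1.49 ± 0.36 (SE), from means of 31.9 ± 8.88 CPM in bone marrow metastases and 89.7 ± 30.5 CPM in lung metastases (SD, n = 4 each). A noncoding transcript on the same strand, AC026461.1, overlaps MT1X, and the counting does not tell how reads of the overlap were shared.

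MT2A, the main metallothionein of many human tissues (chromosome 16, 56608199 to 56609497, plus strand), went the same way with some overlap. It was at 2.14, 1.71, 0.903 and 5.54 CPM in bone marrow replicates 1 to 4, and at 10.7, 11.9, 2.98 and 12.3 CPM in lung replicates 1 to 4. The primary library, at 10.04 CPM, was close to the lung libraries other than replicate 3. The overlap came from bone marrow replicate 4, which lay above lung replicate 3. The log2 fold change was -1.88 ± 0.75 (SE), on 12.6 to 170 counts per library.

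MT1F, MT1E and MT1G lie between MT2A and MT1X in the same cluster, which spans bases 56608199 to 56684196 of chromosome 16. MT1F was at 0.888, 0, 1.39 and 4.30 CPM in bone marrow replicates 1 to 4, at 9.66, 0, 3.31 and 0 CPM in lung replicates 1 to 4, and at 2.30 CPM in the primary library. Its log2 fold change of -0.97 ± 1.87 (SE) became 0.63 without lung replicate 1 and 1.09 in limma voom, so it has no settled direction. MT1G had 1 count in each of 3 libraries, bone marrow replicate 1 and lung replicates 2 and 4, and none in the other 6. MT1E had no count in any of the 9 libraries. A count of 0 allows up to 3 counts, or 0.183 to 0.254 CPM depending on the library, for counting error only. MT1E and MT1G did not pass the filter on low counts and have no fold change.

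Metallothionein genes are close copies of each other, so their reads could have been split between rows. Of the 31-base words in the GENCODE transcripts of a gene, 94.7% for MT1X, 92.8% for MT2A, 96.8% for MT1F, 84.4% for MT1E and 76.7% for MT1G occur in no other of 19 genes and pseudogenes of the family. Summed over the 9 rows of MT2A and the MT1 genes, the family stood at 35.3, 43.3, 22.3 and 44.9 CPM in bone marrow replicates 1 to 4, against 111, 98.7, 60.6 and 141 CPM in lung replicates 1 to 4 and 53.2 CPM in the primary library. Fitted as 1 row, the sum had a log2 fold change of -1.49 ± 0.36 (SE) between bone marrow and lung. The sites did not overlap for the sum, which MT1X dominates with 76.2 to 94.9% of it in each library.

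**Figure D2:**
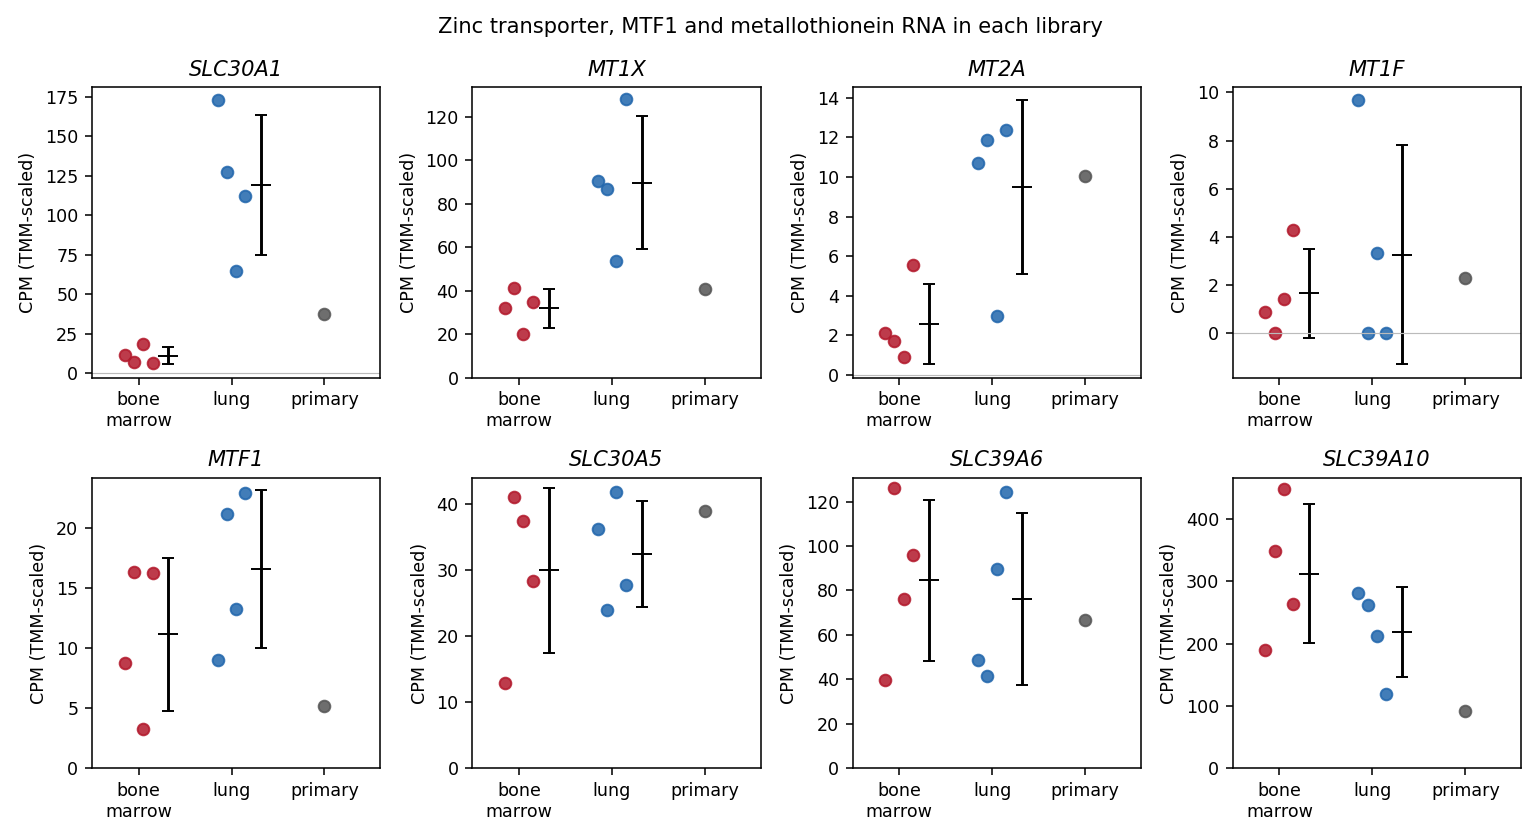
TMM-scaled CPM of the 8 members with enough counts to be tested, 1 panel per gene, with a point per library in bone marrow (4), lung (4) and the primary tumour (1); bars are mean ± SD. SLC30A1 and MT1X separate the sites, at 6.77 to 18.5 against 65.1 to 173 CPM and 19.9 to 41.1 against 53.5 to 128 CPM, while the other genes overlap.

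MTF1 itself (chromosome 1, 37809567 to 37859620, minus strand) did not divide the sites. It was at 8.73, 16.3, 3.26 and 16.3 CPM in bone marrow replicates 1 to 4, at 8.99, 21.2, 13.2 and 22.9 CPM in lung replicates 1 to 4, and at 5.21 CPM in the primary library. The ranges overlapped widely, with a log2 fold change of -0.57 ± 0.61 (SE) between bone marrow and lung. A processed pseudogene, AL929472.4, overlaps MTF1 on the opposite strand, and no source used here gives the strand setting of the counting.

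The importers and SLC30A5 did not separate the sites. SLC39A10 (chromosome 2, 195575977 to 195737702, plus strand) was at 189, 348, 448 and 264 CPM in bone marrow replicates 1 to 4, at 280, 261, 212 and 119 CPM in lung replicates 1 to 4, and at 92.6 CPM in the primary library. The sites overlapped, with a log2 fold change of 0.52 ± 0.34 (SE). SLC39A6, an importer also known as LIV-1 (chromosome 18, 36108532 to 36129385, minus strand), was at 39.7, 126, 76.3 and 95.9 CPM in bone marrow metastases, at 48.6, 41.4, 89.6 and 124 CPM in lung metastases, in the order of their replicates, and at 66.7 CPM in the primary library. SLC30A5, which loads zinc into the secretory pathway (chromosome 5, 69093646 to 69131069, plus strand), was at 12.9, 41.1, 37.3 and 28.3 CPM in bone marrow metastases, at 36.2, 23.9, 41.7 and 27.7 CPM in lung metastases, and at 38.9 CPM in the primary library. The ranges of the sites nearly coincided for SLC39A6 and overlapped for SLC30A5, where bone marrow replicate 1 lay below all lung libraries. The log2 fold changes were 0.15 ± 0.46 for SLC39A6 and -0.11 ± 0.43 for SLC30A5 (SE). An annotated antisense gene, AC010273.1, overlaps SLC30A5, and AHCYP5 and RNU6-915P overlap SLC39A10 on the opposite strand.

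Of the 8 members tested, 0 passed the edgeR quasi-likelihood test between bone marrow and lung at an adjusted p below 0.05 over all 17073 genes, where 0.00586% of all genes passed. At an unadjusted p below 0.05 there were 3 members, against 10.2% of all genes. DESeq2 called 2, SLC30A1 and MT1X, against 3.37% of genes, and limma voom 0, against 0.0351%. In 2 of the 8 members, again SLC30A1 and MT1X, the sites did not overlap, with bone marrow below lung in both. Over all genes tested the sites did not overlap in 5.87%, and bone marrow lay below lung in 3.06%. The median log2 fold change was -0.77 over the 8 members and 0.00 over all genes. Nothing is read from these counts, since this contrast chose SLC30A1.

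**Figure D3:**
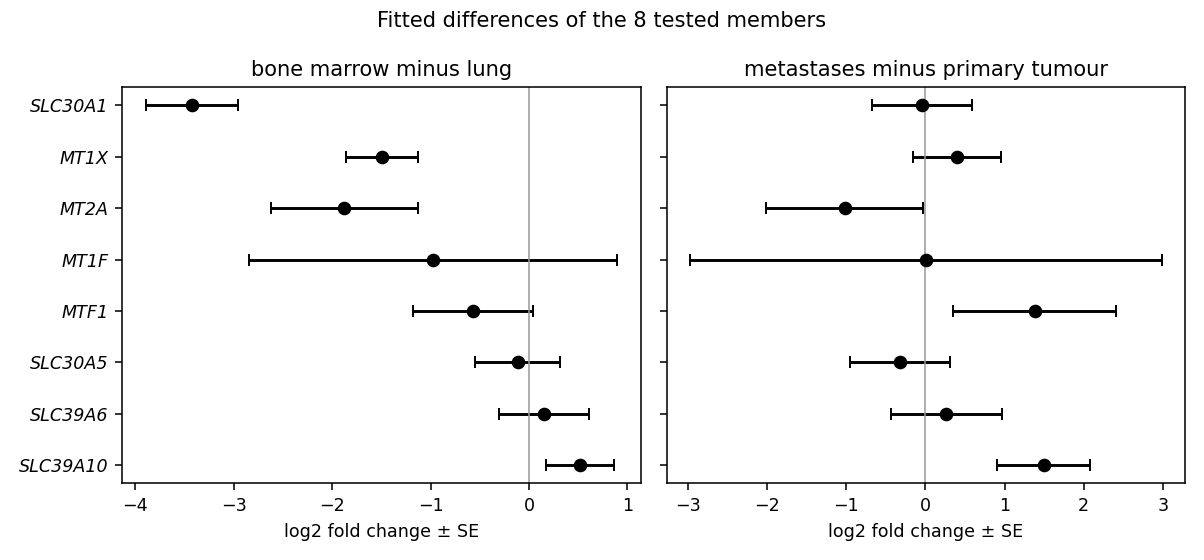
Fitted log2 fold changes with standard errors for the 8 tested members, bone marrow minus lung on the left and metastases minus the primary library on the right. SLC30A1 (-3.42), MT2A (-1.88) and MT1X (-1.49) lie left of 0 between sites, and SLC39A10 (1.49) lies furthest right against the primary library.

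SLC30A1, MT1X and MT2A thus shared a direction between sites, and the next question was whether they also followed each other from library to library within a site. They did so in lung only in part, and in bone marrow their orders were nearly opposite. In bone marrow, replicate 3 had the highest SLC30A1, at 18.5 CPM, together with the lowest MT1X, at 19.9 CPM, the lowest MT2A, at 0.903 CPM, and the lowest MTF1, at 3.26 CPM. The order of SLC30A1 in bone marrow, highest first, was replicates 3, 1, 2 and 4, and that of MT1X was replicates 2, 4, 1 and 3. In lung, replicate 3 was lowest for SLC30A1, MT1X and MT2A alike, while replicate 1 was highest for SLC30A1 and replicate 4 for MT1X and MT2A.

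Because the sites did not overlap for SLC30A1, no correlation is given across sites, and 4 libraries a site are too few for one of their own. After the mean of each site was subtracted from log2(CPM + 1), Pearson's r over the 8 metastasis libraries was -0.09 between SLC30A1 and MT1X and 0.07 between SLC30A1 and MT2A. The median of r between SLC30A1 and all other tested genes was 0.02, and 40.7% of genes had a lower r with SLC30A1 than MT1X did, and 53.4% a lower r than MT2A. The sign depended on single libraries. For MT1X, r was -0.86 without lung replicate 3 and 0.46 without bone marrow replicate 3, and for MT2A it was -0.74 and 0.50 without the same libraries. MTF1 had an r of -0.68 with SLC30A1. MTF1's r with SLC30A1 ran from -0.98 to -0.40 when each library was left out in turn. MT1X and MT2A had an r of 0.75 with each other, from 0.50 to 0.88 over left-out libraries. MTF1 had an r of 0.71 with MT1X, from 0.47 to 0.84, and of 0.54 with MT2A, from 0.34 to 0.70. MT1F did not go with them: its r was -0.38 with MT1X, from -0.60 to -0.15, and -0.01 with MT2A, from -0.39 to 0.26. For scale, the median r of all genes was 0.03 with MT1X and also 0.03 with MT2A. These values describe 8 libraries that also share depth and quality differences, and they were not tested.

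**Figure D4:**
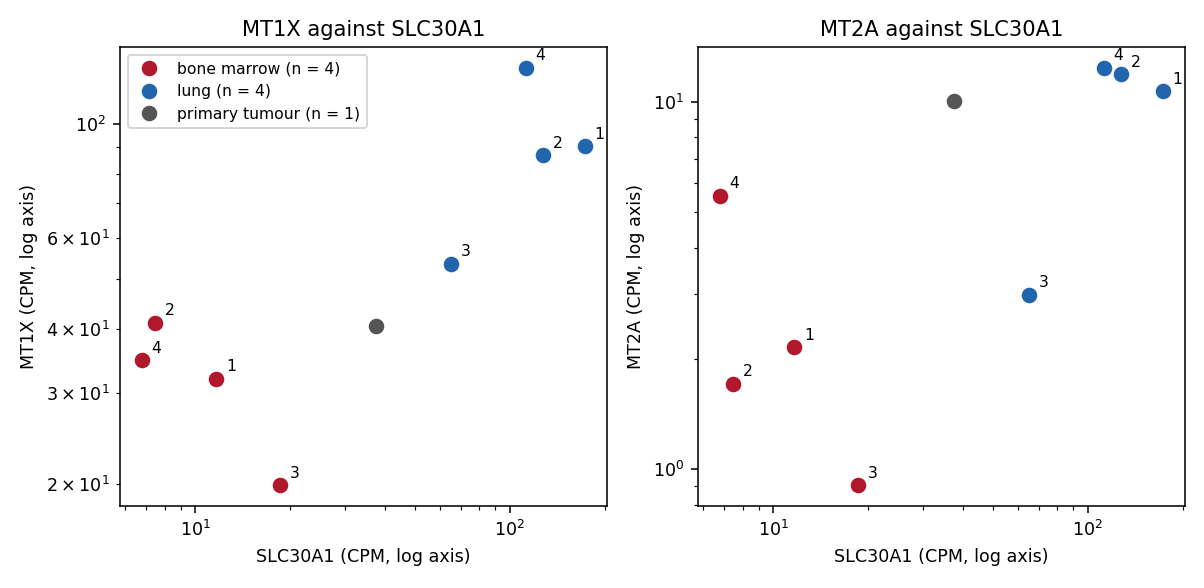
CPM of MT1X (left) and MT2A (right) against SLC30A1 in each library, on log axes, with replicate numbers beside the points. Bone marrow lies at the lower left and lung at the upper right, while among the bone marrow points MT1X is lowest, at 19.9 CPM, where SLC30A1 is highest, at 18.5 CPM.

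The genes most like SLC30A1 within sites were ranked by the same r among 5978 genes with a mean log2 CPM of at least 4. The first 5 were SLC35D1, POU3F1, LRRC57, LARP1B and VAPA, with r from 0.95 to 0.97, and none belongs to the zinc genes listed. For MT2A they were ITFG1, TIMM10B, KIAA1456, PDSS2 and CTCF, with r from 0.92 to 0.96. The highest of so many values over 8 libraries can be this high by chance, and neither ranking was tested. In all of these 10 genes the libraries of the sites overlapped, so none repeated the separation seen for SLC30A1.

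The metastases were then set against the primary library, a contrast that was not used to choose the members. It sets 1 library against the average of the bone marrow and lung means, and the spread used is that within the sites. The fit assumes that the primary library varies as the metastasis libraries do, and it has no replicate check. Of the 8 members, 0 passed the edgeR test over all 17073 genes, of which 0% passed, and DESeq2 and limma voom called 0 as well, against 0.692% and 0.281% of all genes by these tools. SLC39A10 was the 1 member with an unadjusted p below 0.05, a level that 4.79% of all genes reached. It averaged 265 ± 100.3 CPM in the metastases (SD, n = 8) and was at 92.6 CPM in the primary library, which lay below all 8 metastasis libraries. Its log2 fold change was 1.49 ± 0.59 (SE), and the edgeR adjusted p was 0.987. A primary library beyond all 8 others was seen for 17.6% of genes, and for this 1 member of 8.

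SLC30A1, with 4 metastasis libraries on either side of the primary library, had a log2 fold change of -0.04 ± 0.63 (SE) against it, and MT1X had 0.40 ± 0.55. MT2A had -1.02 ± 0.99 and MTF1 1.38 ± 1.03, with 7 of 8 metastasis libraries above the primary for MTF1. SLC39A6 had 0.27 ± 0.71, SLC30A5 -0.32 ± 0.63 and MT1F 0.0050 ± 2.98. The edgeR adjusted p was 0.9999 for each of these 7 genes. Over all genes the median in this contrast was 0.17 on the log2 scale, and the values above include that shift.

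Around the members, the wider set of zinc genes was followed in full. Of 43 SLC30, SLC39, metallothionein and MTF1 symbols listed, 37 were in the table and 23 were tested. Between bone marrow and lung 0 of the 23 passed, 12 were higher in bone marrow (49.9% of all genes were) and the median log2 fold change was 0.00. Besides SLC30A1 and MT1X, the sites did not overlap for SLC30A4 and SLC30A6, both higher in bone marrow, a separation that 2.81% of all genes showed in this direction. Against the primary library 0 of the 23 passed, 14 were higher in the metastases (57.5% of all genes were), 4 had an unadjusted p below 0.05 (4.79% of all genes did), and the median was 0.40 (0.17 over all genes).

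Of the 7 other SLC30 genes tested, 4 were higher and 3 lower in bone marrow, with a median of 0.00. SLC30A6, which works in a complex with SLC30A5, was at 25.3, 52.0, 39.5 and 46.3 CPM in bone marrow replicates 1 to 4 and at 0.424, 17.2, 6.04 and 3.27 CPM in lung replicates 1 to 4, with 0.843 CPM in the primary library. The fitted log2 fold change was 2.59 ± 0.90 (SE), and the edgeR adjusted p was 0.443, while DESeq2 gave an adjusted p of 0.0496. SLC30A4, which moves zinc into vesicles and in mouse is needed for zinc in milk, was at 75.5 ± 22.5 CPM in bone marrow metastases and 16.7 ± 16.7 CPM in lung metastases (SD, n = 4 each), with 44.6 CPM in the primary library and an edgeR adjusted p of 0.475. SLC30A3, a vesicle transporter of neurons, was listed at 0 in the primary library and averaged 1.97 ± 2.08 CPM in bone marrow metastases and 7.62 ± 6.65 CPM in lung metastases (SD, n = 4 each), and the edgeR adjusted p was 0.969 against the primary library.

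Of the 8 other SLC39 genes tested, 6 were higher in bone marrow, the median log2 fold change being 0.37, and 0 passed. SLC39A7, which releases zinc from the endoplasmic reticulum, was at 15.8, 13.3, 27.99 and 30.6 CPM in bone marrow replicates 1 to 4, at 0.254, 13.9, 0 and 0 CPM in lung replicates 1 to 4 and at 28.4 CPM in the primary library (edgeR adjusted p 0.596 between sites). SLC39A11 was at 113 ± 38.5 CPM in bone marrow metastases and 78.4 ± 19.6 CPM in lung metastases (SD, n = 4 each), with 60.03 CPM in the primary library (edgeR adjusted p 0.577 between sites). SLC39A1, an importer of the plasma membrane, was at 108 ± 44.3 CPM in bone marrow metastases, 93.7 ± 36.3 CPM in lung metastases and 40.7 CPM in the primary library (edgeR adjusted p 0.9999 for metastases against the primary library). Of the other metallothioneins, 7 rows were in the table, 3 of them, MT1HL1, MT3 and MT4, had no counts, and none was tested; the 7 summed to at most 0.488 CPM in bone marrow metastases, 0.827 CPM in lung metastases and 0.307 CPM in the primary library.

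**Figure D5:**
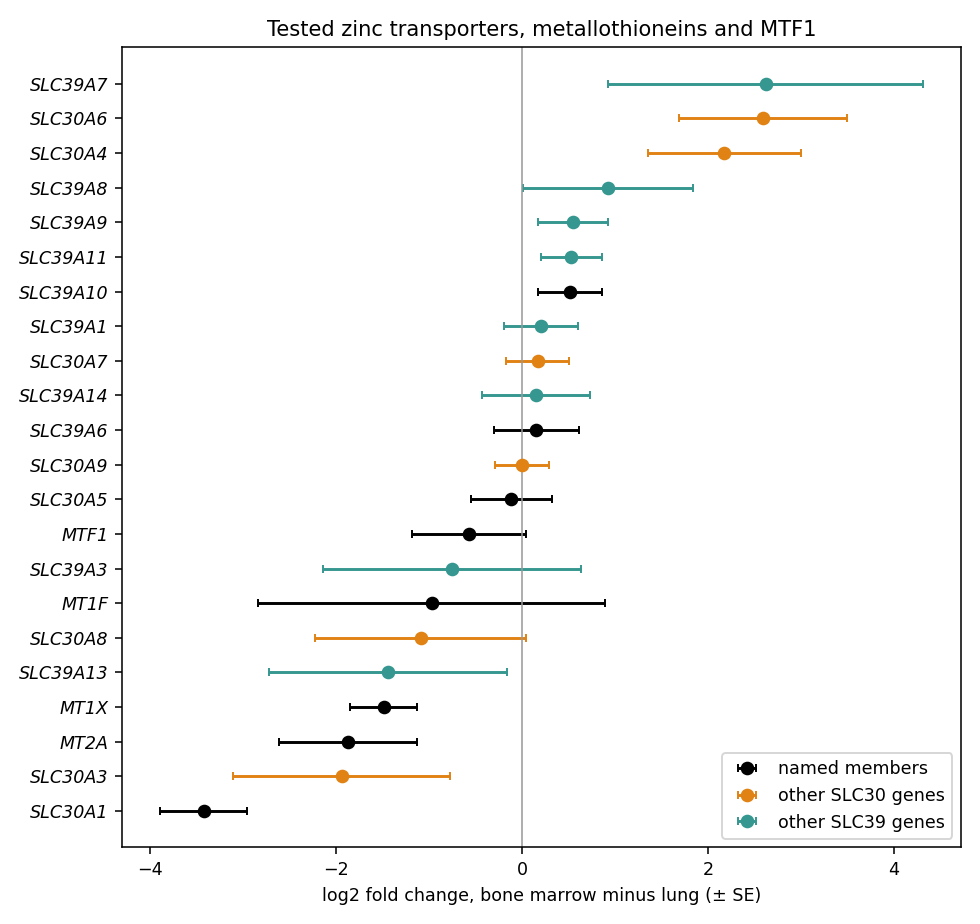
Log2 fold change between bone marrow and lung, with standard error, for the tested zinc transporters, metallothioneins and MTF1, ordered by value; SLC30A10 is left out because it had no count in bone marrow. The named members lie between -3.42 (SLC30A1) and 0.52 (SLC39A10), other SLC30 genes lie on both sides of 0, and none of the genes drawn passed the test over all genes.

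Further genes have been reported as MTF1 targets, most of them in mouse cells. Of 7 listed, 6 were tested, 5 were higher in bone marrow (49.9% of all genes were), 0 passed, and the median log2 fold change was 1.20. The single values were imprecise, at 1.65 ± 0.95 for SLC40A1 and 2.74 ± 1.86 for GCLC (SE). SLC40A1, the iron exporter ferroportin, was at 67.0 ± 14.4 CPM in bone marrow metastases and 21.3 ± 16.2 CPM in lung metastases (SD, n = 4 each), with no overlap, 14.3 CPM in the primary library and an edgeR adjusted p of 0.539. Of all genes, 2.81% had every bone marrow library above every lung library. GCLC, the catalytic subunit of glutathione synthesis, was at 8.07 ± 9.96 CPM in bone marrow metastases and 1.20 ± 1.58 CPM in lung metastases (edgeR adjusted p 0.618). Against the primary library the smallest p were those of SEPW1, a selenoprotein now named SELENOW, at 27.8 ± 6.84 CPM in bone marrow metastases, 28.2 ± 10.5 CPM in lung metastases and 10.5 CPM in the primary library, and of PGF, a VEGF family growth factor, at 7.55 ± 7.45, 3.82 ± 4.65 and 0.0767 CPM in the same order. Neither passed (edgeR adjusted p 0.9999 for both). Of 5 tested copper genes 4 were higher in bone marrow (49.9% of all genes were) and 0 passed, with a median of 0.57. The copper ATPase ATP7A was at 19.2 ± 9.04 CPM in bone marrow metastases and 12.9 ± 7.09 CPM in lung metastases (SD, n = 4 each), and CCS, the copper chaperone of superoxide dismutase, at 20.2 ± 16.6 and 11.3 ± 7.52 CPM.

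Stress can also induce metallothioneins. Of 9 genes of metal and oxidative stress, 8 were lower in bone marrow (49.9% of all genes were higher there). Their median log2 fold change was -0.72, and 0 passed in edgeR while DESeq2 called 2, against 3.37% of all genes. The heat shock gene HSPA1B was at 26.2, 36.2, 27.99 and 31.6 CPM in bone marrow replicates 1 to 4, against 92.0, 77.4, 58.1 and 71.2 CPM in lung replicates 1 to 4 and 47.4 CPM in the primary library, with no overlap (edgeR adjusted p 0.307, DESeq2 adjusted p 9.7e-05). HSPA1B has a near-identical copy, HSPA1A, so its counts are uncertain. HSPA1A was at 41.6, 53.1, 42.0 and 69.0 CPM in bone marrow replicates 1 to 4. In lung replicates 1 to 4 it was at 118, 33.3, 62.3 and 54.7 CPM, and the sites overlapped (edgeR adjusted p 0.781). Of the 9 genes, 2 had all bone marrow libraries below all lung libraries and 1 above, against 3.06% and 2.81% of all genes. The thioredoxin reductase gene TXNRD1 went against the list, at 191 ± 65.5 CPM in bone marrow metastases and 74.0 ± 21.6 CPM in lung metastases (SD, n = 4 each; edgeR adjusted p 0.331, DESeq2 adjusted p 0.0136). Heme oxygenase HMOX1 was at 0.148, 2.20, 0 and 0 CPM in bone marrow metastases and 4.83, 25.9, 4.38 and 7.99 CPM in lung metastases, in the order of their replicates, and at 23.1 CPM in the primary library.

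Immediate early genes, which respond to handling within minutes, were lower in bone marrow for 12 of 18 (49.9% of all genes were higher there). Their median log2 fold change was -0.88, and 0 passed in edgeR while DESeq2 called 3, against 3.37% of all genes. FOS lay the other way, at 437 ± 130 CPM in bone marrow metastases and 182 ± 94.6 CPM in lung metastases (SD, n = 4 each; edgeR adjusted p 0.399). KLF6 was at 118, 106, 105 and 110 CPM in bone marrow replicates 1 to 4, against 269, 213, 203 and 178 CPM in lung replicates 1 to 4 and 199 CPM in the primary library. KLF2 was at 1.55, 0.549, 0.417 and 0.717 CPM in bone marrow metastases, against 5.09, 7.87, 10.7 and 6.83 CPM in lung metastases and 8.66 CPM in the primary library. Both separated the sites as SLC30A1 did (edgeR adjusted p 0.303 for each). So did ATF3, at 27.1 ± 15.2 CPM in bone marrow metastases and 95.4 ± 32.8 CPM in lung metastases (SD, n = 4 each, edgeR adjusted p 0.356). These were 3 of the 18, with 0 the other way. Over all genes tested, 3.06% had all bone marrow libraries below all lung libraries and 2.81% had them above. Glucocorticoids also induce metallothioneins, and of 8 glucocorticoid-responsive genes 4 were higher and 4 lower in bone marrow, with 0 called. TSC22D3, also called GILZ, was at 29.4, 26.2, 13.0 and 32.8 CPM in bone marrow metastases, against 55.7, 65.7, 70.7 and 33.9 CPM in lung metastases and 43.01 CPM in the primary library (edgeR adjusted p 0.441), while FKBP5 was at 53.6 ± 45.7 CPM in bone marrow metastases and 18.6 ± 10.4 CPM in lung metastases (SD, n = 4 each; edgeR adjusted p 0.486). Each site is also its own tissue, so time and handling before lysis cannot be told apart from the site, for these lists and for the members.

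Against the primary library, none of these copper, stress, glucocorticoid and immediate early genes passed either. The copper importer SLC31A1 and the copper chaperone ATOX1 had log2 fold changes of 0.45 ± 0.62 and 0.22 ± 0.42 (SE). GCLM, the modifier subunit of glutathione synthesis, had -0.94 ± 0.43 and HMOX1 -3.18 ± 1.63. The phosphatase gene DUSP1 had 2.03 ± 0.79 (edgeR adjusted p 0.974) and the kinase gene SGK1 0.68 ± 0.73. The transcription factor FOS had 1.36 ± 0.63 and KLF2 -1.80 ± 0.77. The edgeR adjusted p was 0.9999 for all of these but DUSP1.

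Other cell types could add RNA of their own, and in bulk libraries fewer cells of a type and less RNA per cell cannot be told apart. The 11 leukocyte markers summed to between 1.50 and 9.47 CPM in bone marrow metastases, 2.904 and 38.0 CPM in lung metastases and 4.14 CPM in the primary library, with CSF1R at 0 in all 9. The tumour cells were sorted, and the host's own leukocytes are mouse cells. Reads listed as mouse made up 7.35 to 7.75% in bone marrow, 7 to 8.09% in lung and 7.45% in the primary library. How reads were assigned to a species is not stated, so these values do not establish that mouse RNA was present. Whether mouse RNA was counted in the human rows was not tested. Of 6 leukocyte markers tested, 4 were lower in bone marrow and 2 higher. The sites did not overlap for CD68, at 0.111 ± 0.222 CPM in bone marrow metastases and 7.98 ± 9.08 CPM in lung metastases, nor, the other way, for LYZ, at 1.11 ± 0.45 CPM in bone marrow metastases and 0.141 ± 0.281 CPM in lung metastases (SD, n = 4 each). No overlap was seen for 5.87% of all genes. CD68 was uneven in lung, at 20.9, 7.80, 0.993 and 2.25 CPM in replicates 1 to 4, and LYZ had 79 counts over all 9 libraries. The 7 lung epithelial markers summed to between 12.3 and 79.0 CPM in bone marrow metastases, 3.92 and 118 CPM in lung metastases and 30.6 CPM in the primary library, with SCGB1A1 at 0 in all 9. SFTPC was at 0, 0, 0.744 and 0.0726 CPM in lung replicates 1 to 4, and AGER at 0, 1.20, 1.41 and 0 CPM. Both were at 0 in bone marrow and in the primary library. The sites overlapped for all 4 markers of this list that were tested. EPCAM made up nearly all of the highest sums, at 77.7 CPM in bone marrow replicate 3 and 115 CPM in lung replicate 2. The 7 red cell markers summed to between 16.6 and 100.04 CPM in bone marrow metastases, 3.63 and 161 CPM in lung metastases and 7.82 CPM in the primary library, with ALAS2 at 0 in all 9. The 8 endothelial and fibroblast markers summed to between 110 and 368 CPM in bone marrow metastases, 174 and 422 CPM in lung metastases and 295 CPM in the primary library. Most of this sum was DCN, at 132 ± 57.7 and 144 ± 93.1 CPM in bone marrow and lung metastases, and LUM, at 95.6 ± 88.9 and 113 ± 17.5 CPM (SD, n = 4 each). KDR averaged 0.0490 and 0.0558 CPM, and VWF had no count in the metastases.

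Mitochondrial ribosomal RNA, followed here as a measure of library quality, also separated the sites. It made up 0.0956 to 0.218% of reads in bone marrow, 0.359 to 0.491% in lung and 0.0570% in the primary library. Of 6 transcripts marking RNA quality, all 6 were lower in bone marrow (49.9% of all genes were higher there), the median log2 fold change being -0.50 and 0 called. The sites overlapped for all of them but MT-CO1, and 3.06% of all genes had all bone marrow libraries below all lung libraries. The 6 summed to between 4576 and 13321 CPM in bone marrow metastases, 10310 and 13197 CPM in lung metastases and 13864 CPM in the primary library. The part of cell mixture, handling and library quality in the levels of SLC30A1 and the metallothioneins was not tested. Without lung replicate 3, the log2 fold change between bone marrow and lung was -3.62 for SLC30A1, -1.67 for MT1X and -2.16 for MT2A. Over all single libraries left out in turn it ran from -3.79 to -3.18 for SLC30A1, -1.67 to -1.27 for MT1X and -2.57 to -1.59 for MT2A.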

How the data were processed

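Per the labels' protocols, the 9 libraries (4 bone marrow, 4 lung, 1 primary tumour) were prepared with a template-switching kit for low input. The authors deposited estimated counts per gene symbol, with no scaling for depth. The submitters' processing notes name Trim Galore, Salmon and hg38. A deposited sample table gives the percent of reads per species, the fraction of reads per counting category and the read length. No source used here says how that table was made.

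Estimated counts were rounded. Of 34934 rows, 12 for vector genes were left out, at most 0.0133% of a library's counts. edgeR 4.0.16 filterByExpr left 17073 genes, scaled by TMM and fitted in 1 quasi-likelihood model with 3 groups (two-sided, Benjamini-Hochberg over all genes, threshold 0.05). The standard error is the log2 fold change over the square root of F. Alternatives used DESeq2 1.42.0 and limma 3.58.1 in R 4.3.3, other scalings and filters, summed metallothionein rows, the replicate block and left-out libraries; left-out libraries for the correlations among the metallothioneins and MTF1 were added after seeing the data. In simulated data for bone marrow against lung, over 16205 genes, the edgeR step called 22% of genes changed 4-fold and 61% of those changed 16-fold. The 100 genes changed at each fold were drawn from those averaging at least 4 CPM, so the rates do not cover rows as low as MT1F.

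The members and gene lists were chosen with earlier results of these data known. All members are named; from each other list, genes past the threshold or, with none past it, the 2 smallest p with a mean log2 CPM of at least 2; and the 5 genes most like SLC30A1 and MT2A. Genes outside this rule (ATF3, HSPA1A, SFTPC, AGER, CD68, LYZ, EPCAM, DCN, LUM, KDR, MT-CO1, SLC30A10 and genes named as present or at 0) were chosen after their values were seen. Older symbols were matched through RefSeq synonyms. The lowest chi-square per degree of freedom over 36 library pairs was 79.9, so no 2 libraries agreed within sampling noise.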

Additional observations from a re-analysis of the deposited data

Results flagged for a closer look

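Each of the 23 tested zinc genes was examined in bone marrow and in lung for a library far from the other 3 of its site, 46 groups in all, of which chance alone would mark about 1 in 20. There were 2 such cases, both in lung. SLC30A10, a manganese exporter of the same family, was at 11.1 CPM in lung replicate 4 and had no count in the other 8 libraries. SLC39A7 was at 13.9 CPM in lung replicate 2, against 0.254, 0 and 0 CPM in the other lung libraries. No member of the set under study was marked.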

How the results depend on the processing

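Depth and the spread between libraries limit what could be called, most of all for MT1F, MT2A and the single primary library. Between bone marrow and lung 1 gene passed in all, no zinc gene. When genes had to reach 5 CPM in 4 or more libraries, 3 passed, 1 of them a zinc gene, SLC30A1, which this contrast had chosen, so that its pass is no separate result. DESeq2 called 468, of which 3 were zinc genes, and limma voom 6. With the replicate block 0 passed, and 0 passed when both bone marrow 1 and lung 3 were left out or any single library was (0 to 0). For metastases against the primary library, where 0 passed in edgeR (817 at an unadjusted p under 0.05), DESeq2 called 96 and limma voom 48, with no zinc gene, and leaving out single libraries gave 0 to 0. Same-numbered libraries of the sites had correlations of deviations of -0.0036, 0.043, -0.073 and -0.036, and 1 of 4 correlated best with its own number. Such low values cannot tell whether the libraries are paired, because libraries of the same mouse need not deviate together. With the replicate block SLC30A1 was at -3.51, MT1X at -1.49 and MT2A at -2.01 between sites. Without both bone marrow 1 and lung 3 these were -3.66, -1.68 and -2.10. Of the members' 140 values between sites under alternatives, 2 moved by more than the spread between replicates, both of MT1F: 1.09 with limma voom and 0.63 without lung replicate 1. In all 7 turned direction, these 2, 2 of SLC39A6 (-0.11 without bone marrow 2 and -0.052 without lung 2) and 3 of SLC30A5 (0.15 without bone marrow 1, 0.037 without lung 3 and 0.28 without both). Against the primary library 113 of 124 kept their direction. MT1F turned to -0.0055 with median-ratio factors, -0.075 with library size alone, -0.0052 in DESeq2 and -2.06 in limma voom, and ran from -0.83 to 0.21 over left-out libraries. SLC30A1 turned to 0.037 without bone marrow 1 and lung 3 and ran from -0.23 to 0.043 over left-out libraries. The cause was not tested. The median within-site r of members with SLC30A1 was -0.09, 0.02 with log2(CPM + 5), and ran from -0.49 to 0.023 over left-out libraries.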
